A study of Mus musculus with 4 samples.

Results

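The 8 TRAJ segments from TRAJ58 to TRAJ48 are the joining segments of the mouse T cell receptor alpha chain (TCRα) that lie nearest to the V segments. A clone belonged to them when its listed J segment carried the number 48 or higher, and 23413 of 189388 TCRα clones did so, with 8 of the 44 TRAJ segments found. In the RefSeq annotation of GRCm38.p6 (mm10), 14 segments carry such a number, of which 5 are pseudogenes. TRAJ61, TRAJ60, TRAJ59, TRAJ55, TRAJ54 and TRAJ51 were listed in 0 clones. Of these 6, TRAJ59 is the segment not annotated as a pseudogene, and whether the segment library of MiXCR holds it is not given in the sources used here.

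The clones come from CD4 T cells of the spleen, taken at a mean age of 25 days and sorted as live CD4+, TCRβ+ and CD25- cells that did not bind the aGalCer-loaded CD1d tetramer. WT mice were C57BL/6 (B6) animals, and Tet2/3 DKO mice were Tet2 -/- Tet3 flx/flx CD4Cre animals. In the latter Tet2 is deleted in every cell, whereas Tet3 is deleted by a Cre recombinase under control of Cd4 regulatory elements, which is active from the CD4 CD8 double positive stage of the thymus onwards. Each genotype is represented by 2 libraries, each labelled as a biological replicate. The tables hold TCR transcripts only, so that neither the deletion of Tet2 and Tet3 nor the sorted phenotype could be checked in them.

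TCRα assembly starts in double positive thymocytes, the stage at which this Cre is active. A V segment joins a J segment, the DNA between them is lost, and further rounds can join a more upstream V to a more downstream J on the same chromosome. Early joins are known to use the V segments at the J end of the V array and the J segments at the V end of the J array. An out-of-frame join encodes no receptor chain and is therefore not chosen by selection of the T cell for its own receptor. TRAJ segments encode the end of CDR3, the loop that meets peptide and MHC, and the start of framework region 4.

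The germline sequences of the 8 segments are shown because the length of their CDR3 part is used below. They were read from clones in which no base of the segment had been removed, in the order from the V side (5′ to 3′, coding strand), and the capitals mark the part that falls within CDR3. The printed sequence was carried by 72.1% to 90.2% of such clones of its segment. All 8 CDR3 parts end in the TTT codon of the conserved phenylalanine, and all 8 framework parts begin with gg.
TRAJ58: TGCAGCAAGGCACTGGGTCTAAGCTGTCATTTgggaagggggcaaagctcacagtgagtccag
TRAJ57: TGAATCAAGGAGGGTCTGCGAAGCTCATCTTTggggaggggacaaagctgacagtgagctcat
TRAJ56: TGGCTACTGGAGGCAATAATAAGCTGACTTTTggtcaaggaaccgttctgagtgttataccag
TRAJ53: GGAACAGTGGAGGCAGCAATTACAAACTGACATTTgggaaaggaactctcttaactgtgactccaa
TRAJ52: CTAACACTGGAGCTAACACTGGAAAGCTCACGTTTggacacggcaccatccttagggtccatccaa
TRAJ50: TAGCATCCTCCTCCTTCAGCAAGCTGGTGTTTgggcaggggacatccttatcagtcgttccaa
TRAJ49: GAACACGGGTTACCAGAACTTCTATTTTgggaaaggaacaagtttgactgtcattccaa
TRAJ48: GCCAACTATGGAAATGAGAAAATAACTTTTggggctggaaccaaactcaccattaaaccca

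The CDR3 part is 35 bases in TRAJ53 and TRAJ52, 32 bases in TRAJ58, TRAJ57, TRAJ56 and TRAJ50, 30 bases in TRAJ48 and 28 bases in TRAJ49. TRAJ58 lies at chr14:54157280-54157342 and TRAJ48 at chr14:54169808-54169868 (mm10). Their starts are 12.5 kb apart.

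Together the 8 segments held a like share of the TCRα reads in every library, and the genotypes overlapped. They held 20366 of 172506 reads in WT replicate 1 (11.8%, 95% Wilson interval 11.7% to 12.0%), and 26301 of 216457 in replicate 2 (12.2%, 12.0% to 12.3%). The share was 23655 of 195046 reads in Tet2/3 DKO replicate 1, or 12.1% (12.0% to 12.3%), and 35767 of 287799 reads in replicate 2, or 12.4% (12.3% to 12.5%). WT averaged 12.0% ± 0.244 and Tet2/3 DKO 12.3% ± 0.212 (n = 2, SD; exact two-sided permutation p = 0.67). The log2 ratio of Tet2/3 DKO to WT was 0.04, and it was -0.03 when the clones with at least 0.1% of a library were left out. This filter took out 391 and 4160 member reads in Tet2/3 DKO and 0 in WT, and it also took out clones of other TRAJ segments. The shares were then 12.3% and 12.2% in WT against 12.1% and 11.99% in Tet2/3 DKO, which no longer overlapped and lay in the opposite order. The result also depended on where the set of segments began. From TRAJ50 up the shares were 7.98% and 7.99% in WT against 8.23% and 9.06% in Tet2/3 DKO, without overlap and with a log2 ratio of 0.11. All of the 391 and 4160 reads of large clones lie in segments from TRAJ50 up, and this set was not run without them. From TRAJ45 up the log2 ratio was 0.02. The libraries carry no molecular identifiers, so the intervals cover counting error only. In RNA from bulk cells, fewer cells with a chain and less RNA per cell cannot be told apart. With 2 libraries per genotype, the permutation test over all 6 assignments of the labels cannot give a p below 0.33.

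Counted by clones, where each distinct sequence counts the same whatever its reads, the share was 12.6%, 12.4%, 12.5% and 12.0% in WT replicates 1 and 2 and Tet2/3 DKO replicates 1 and 2. Here Tet2/3 DKO replicate 2 was lowest, and the genotypes overlapped (means 12.5% ± 0.110 and 12.3% ± 0.302, n = 2, SD; exact two-sided permutation p = 0.67). Among out-of-frame clones the share was 11.4%, 11.7%, 11.4% and 11.4% of 5353, 6319, 6335 and 7202 clones in the same order. WT averaged 11.6% ± 0.223 and Tet2/3 DKO 11.4% ± 0.000502 (n = 2, SD; exact two-sided permutation p = 1).

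The segments differed from each other more than the genotypes did. TRAJ49 was the most used member in every library by reads and by clones, and by clones TRAJ58 and TRAJ53 were the least used in every library. TRAJ49 held 2.37% and 2.58% of reads in WT against 2.38% and 2.05% in Tet2/3 DKO. TRAJ56, the next by clones in 3 of 4 libraries, held 1.94% of reads in both WT libraries against 1.81% and 1.98% in Tet2/3 DKO. TRAJ53 held 1.06% and 0.988% of reads in WT against 1.03% and 0.904% in Tet2/3 DKO. A sequencing interval of a single segment share reached at most 0.0718 percentage points to each side for reads and 0.154 points for clones.

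TRAJ58 was the member with the largest difference between genotypes by reads, and this difference came with a large clone. It held 0.946% and 0.905% of reads in WT against 1.06% and 1.89% in Tet2/3 DKO. Both Tet2/3 DKO libraries lay above both WT libraries, and Tet2/3 DKO replicate 2 stood far from the other 3. WT averaged 0.926% ± 0.0290 and Tet2/3 DKO 1.47% ± 0.589 (n = 2, SD). The log2 fold change was 0.67 with a standard error of 0.16 (edgeR quasi-likelihood test, adjusted p = 0.00111). This error draws on a spread moderated over all segments tested, not on that of TRAJ58 alone, and the standard error from DESeq2 was 0.254. Without Tet2/3 DKO replicate 1 the log2 fold change rose to 1.03. In Tet2/3 DKO replicate 2 the largest TRAJ58 clone held 2997 of 5439 TRAJ58 reads. Without the largest TRAJ58 clone of each library the shares were 0.930%, 0.872%, 0.986% and 0.857%, and Tet2/3 DKO replicate 2 was lowest. The call was lost without the clones of at least 0.1% of a library (log2 fold change 0.08, adjusted p = 0.94) and without Tet2/3 DKO replicate 2 (0.19, adjusted p = 0.677). It was also lost without WT replicate 1 (0.70, adjusted p = 0.104), without WT replicate 2 (0.64, adjusted p = 0.111), with the replicate block (0.61, adjusted p = 0.733) and with DESeq2 (0.67, adjusted p = 0.185), where the size of the change was kept.

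TRAJ58 was the 1 member called by reads among the 8, against 2 of all 43 segments tested, or 4.65%. The other 7 members had log2 fold changes from -0.16 for TRAJ49 to 0.13 for TRAJ50, with adjusted p from 0.793 to 0.944 (edgeR). The value for TRAJ49 was -0.275 without Tet2/3 DKO replicate 1 and -0.0597 without Tet2/3 DKO replicate 2. For TRAJ48, TRAJ50, TRAJ52, TRAJ53 and TRAJ56 the sign changed when 1 of the Tet2/3 DKO libraries was left out. Over the 8 members the median log2 fold change was -0.05, beside 0.01 over all 43 segments. The genotypes did not overlap for 2 members that were higher in Tet2/3 DKO, TRAJ58 and TRAJ57, against 13.6% of all 44 segments, and for 0 members that were lower, against 11.4%. TRAJ57 held 1.71% and 1.75% of reads in WT against 1.86% and 1.92% in Tet2/3 DKO.

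By clones, 0 of the 8 members and 0% of the 43 segments passed the threshold (edgeR). At an unadjusted p under 0.05 there were 1 member, TRAJ57, and 5 segments in all, and DESeq2 called 0 segments as well. TRAJ57 held 1.76% and 1.63% of clones in WT against 1.84% and 1.83% in Tet2/3 DKO, a log2 fold change of 0.12 ± 0.06 (SE; edgeR, adjusted p = 0.348). It was 0.06 without WT replicate 2 and 0.17 without WT replicate 1. TRAJ58 by clones held 1.05% and 1.01% in WT against 1.07% and 1.06% in Tet2/3 DKO. The log2 fold change was 0.05 ± 0.06 (SE, edgeR, adjusted p = 0.602). For TRAJ58 it was 0.0786 without WT replicate 1 and 0.0175 without WT replicate 2. In Tet2/3 DKO replicate 2, 11 of the 572 TRAJ58 clones had the V, J and CDR3 of the largest one, so that its sequence variants add to the clone share. With clones of the same V, J and CDR3 merged, the log2 fold change of TRAJ58 was 0.03. The genotypes did not overlap for 2 members higher in Tet2/3 DKO, again TRAJ58 and TRAJ57, against 34.1% of all segments, and for 3 members lower, TRAJ56, TRAJ52 and TRAJ49, against 22.7%. These member counts were near the share of all segments. Without Tet2/3 DKO replicate 1, edgeR called 9 of 43 segments by clones, among them 1 member, TRAJ48 (log2 fold change -0.16, adjusted p = 0.0403), and without Tet2/3 DKO replicate 2 it called 1 segment and 0 members.

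**Figure D1:**
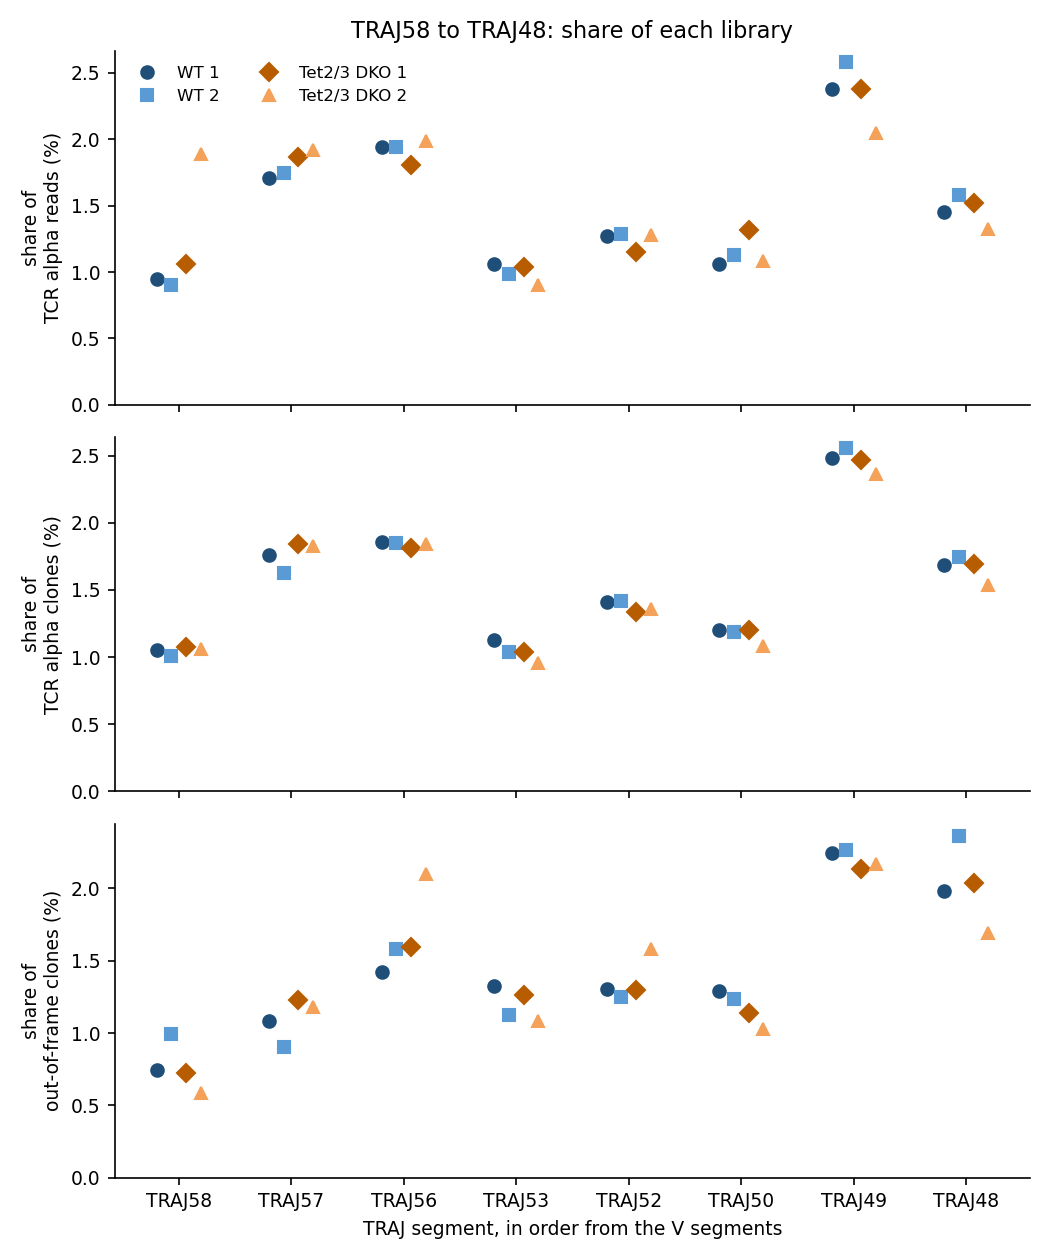
Share of TCRα reads, of TCRα clones and of out-of-frame clones (%, y axes) held by each of the 8 segments in the order from the V side (x axis), with 1 point per library. TRAJ58 by reads in Tet2/3 DKO replicate 2, at 1.89%, is the point that stands apart in the upper panel, and it lies at 1.06% in the panel of clones.

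The clones of these segments were out of frame somewhat less often than those of all other TRAJ segments together, and the gap was smaller when TRAJ26 to TRAJ35 were left out. The out-of-frame share of clones with a CDR3 was 12.6%, 12.5%, 12.5% and 12.9% for TRAJ48 to TRAJ58 and 14.3%, 13.5%, 14.0% and 13.8% for all other TRAJ, in WT replicates 1 and 2 and Tet2/3 DKO replicates 1 and 2. The difference was -1.31 percentage points on average over the 4 libraries, with a spread of 0.373 (SD), and its sign was the same in 4 of 4 (exact two-sided sign-flip permutation p = 0.13, the smallest that 4 libraries allow). Without TRAJ26 to TRAJ35 among the other segments the difference was -0.58 points, again of the same sign in 4 of 4 libraries (exact two-sided sign-flip permutation p = 0.13). By group, the out-of-frame share was on average 12.6% for the members, 13.1% for TRAJ37 to TRAJ47, 15.5% for TRAJ26 to TRAJ35, 13.4% for TRAJ15 to TRAJ24 and 12.95% for TRAJ2 to TRAJ13. The members were not the lowest group in every library, since TRAJ37 to TRAJ47 had 12.45% in WT replicate 2 against 12.48% for the members, and TRAJ2 to TRAJ13 had 12.86% in Tet2/3 DKO replicate 2 against 12.88%. These comparisons were chosen after the values had been seen.

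The members did not behave alike in this respect. For each segment, its share of out-of-frame clones was divided by its share of in-frame clones, so that a value of 1 means equal use in both. TRAJ57 had ratios of 0.582 and 0.516 in WT against 0.624 and 0.604 in Tet2/3 DKO. TRAJ58 had 0.655 and 0.963 in WT against 0.630 and 0.502 in Tet2/3 DKO. TRAJ49 lay between 0.839 and 0.899 in the 4 libraries. These 3 were below 1 in 4 of 4 libraries, as were 34.9% of the 43 segments with at least 500 clones. TRAJ48, with 1.12 to 1.42, and TRAJ53, with 1.08 to 1.24, were above 1 in 4 of 4 libraries, as were 27.9% of all segments. TRAJ56, TRAJ52 and TRAJ50 lay on both sides of 1. TRAJ56 was below 1 in both WT libraries (0.725 and 0.816) and lay at 0.847 and 1.14 in Tet2/3 DKO.

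Among out-of-frame clones alone, the genotypes did not overlap for 2 members higher in Tet2/3 DKO, TRAJ57 and TRAJ56, against 25% of all segments, and for 3 members lower, TRAJ58, TRAJ50 and TRAJ49, against 22.7%. TRAJ58 held 40 and 63 out-of-frame clones in WT against 46 and 42 in Tet2/3 DKO, or 0.747%, 0.997%, 0.726% and 0.583% of the out-of-frame clones. Its highest value was a WT library, and the direction was opposite to that of its reads. A Wilson interval of such a share reached at most 0.398 percentage points to each side.

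V segments from the J end of the V array were partners of these segments more often than of any other TRAJ group. The 5 V segments TRAV17, TRAV18, TRAV19, TRAV20 and TRAV21/DV12, which lie within 351 kb of TRAJ58 and of which TRAV20 is annotated as a pseudogene, took part in 830 of 4967 and 1060 of 6065 member clones in WT, against 1054 of 5897 and 1265 of 6484 in Tet2/3 DKO. The shares were 16.7%, 17.5%, 17.9% and 19.5%. In the segments TRAJ2 to TRAJ13 at the other end of the J array the shares were 0.133%, 0.160%, 0.163% and 0.181%. The mean difference was 17.7 percentage points, with a spread of 1.16 (SD over 4 libraries), and it was positive in 4 of 4 libraries (exact two-sided sign-flip permutation p = 0.13). In the neighbouring segments TRAJ37 to TRAJ47 the share was 3.94% to 4.60%, and the difference from these was 13.7 points (same exact sign-flip permutation, p = 0.13).

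In out-of-frame clones the shares were of similar size. Here the J-proximal V segments took part in 87 of 610 and 128 of 740 member clones in WT, against 128 of 723 and 174 of 822 in Tet2/3 DKO, shares of 14.3%, 17.3%, 17.7% and 21.2%. The out-of-frame share in TRAJ2 to TRAJ13 lay between 0.132% and 0.436%. The mean difference was 17.3 points with a spread of 2.82 (SD over 4 libraries), positive in 4 of 4 (exact two-sided sign-flip permutation p = 0.13).

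Over the 8 segments together, both Tet2/3 DKO libraries had a higher J-proximal V share than both WT libraries. WT averaged 17.1% ± 0.542 and Tet2/3 DKO 18.7% ± 1.16 (n = 2, SD), a log2 ratio of 0.13 (exact two-sided permutation p = 0.33). The difference of 1.60 points was larger than the pooled SD of 0.903. Without Tet2/3 DKO replicate 2 the log2 ratio was 0.06. Over clones with a single V hit the shares were 22.2% and 22.9% in WT against 23.4% and 24.3% in Tet2/3 DKO, and the log2 ratio was 0.08. More than 1 V segment was listed for 24.8%, 23.5%, 23.6% and 19.8% of the member clones of WT replicates 1 and 2 and Tet2/3 DKO replicates 1 and 2. Single segments did not all share this direction, since the share for TRAJ53 was 18.2% and 18.0% in WT against 13.8% and 16.1% in Tet2/3 DKO. Of the V segments, TRAV17 took part in 0.282% and 0.379% of member clones in WT against 0.237% and 0.170% in Tet2/3 DKO. Weighted by reads, the shares were 19.6% and 19.5% in WT against 20.9% and 31.03% in Tet2/3 DKO, and without the clones of at least 0.1% of a library they were 19.6%, 19.5%, 21.2% and 23.1%. A ratio of this size was not particular to the members. In the neighbouring TRAJ37 to TRAJ47 the shares were 3.94% and 4.11% in WT against 4.60% and 4.15% in Tet2/3 DKO, also without overlap, with a log2 ratio of 0.12 (exact two-sided permutation p = 0.33). TRAJ2 to TRAJ13 had only 8 and 12 such clones in WT against 12 and 16 in Tet2/3 DKO. The genotypes did not overlap there either, with a log2 ratio of 0.24 (p = 0.33 in the same permutation test). They overlapped in TRAJ26 to TRAJ35, with a log2 ratio of 0.11 (permutation p = 1), and in TRAJ15 to TRAJ24, where the log2 ratio was -0.26 (permutation p = 0.67).

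Within the member segments the J-proximal V share was higher in the 3 segments at the V end, TRAJ58, TRAJ57 and TRAJ56, than in the other 5, in every library. Over all 4 libraries it was 31.6% of 1988 clones for TRAJ58, 33.4% of 3346 for TRAJ57, 25.4% of 3486 for TRAJ56 and 16.5% of 1956 for TRAJ53. It was 9.18% of 2615 clones for TRAJ52, 9.61% of 2205 for TRAJ50, 11.5% of 4671 for TRAJ49 and 8.55% of 3146 for TRAJ48. The share fell from each segment to the next between TRAJ57 and TRAJ52 in every library, and over all libraries the last 4 segments lay close together. By library, TRAJ58 spanned 28.8% to 33.7% and TRAJ57 29.3% to 35.1%, so that these neighbours overlapped. The lowest member was TRAJ50 in WT replicate 1 (6.75%), TRAJ52 in Tet2/3 DKO replicate 2 (8.73%) and TRAJ48 in the other two libraries (7.62% and 7.74%). TRAJ47, the next segment downstream, had 10.1%, the highest value among the 35 other segments with at least 500 clones, whose median was 0.351%. Across segments, Spearman's rho with the distance from TRAJ58 was -0.88 over the 8 members and -0.93 over 43 segments, as a description, since the segments share libraries and V segments.

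**Figure D2:**
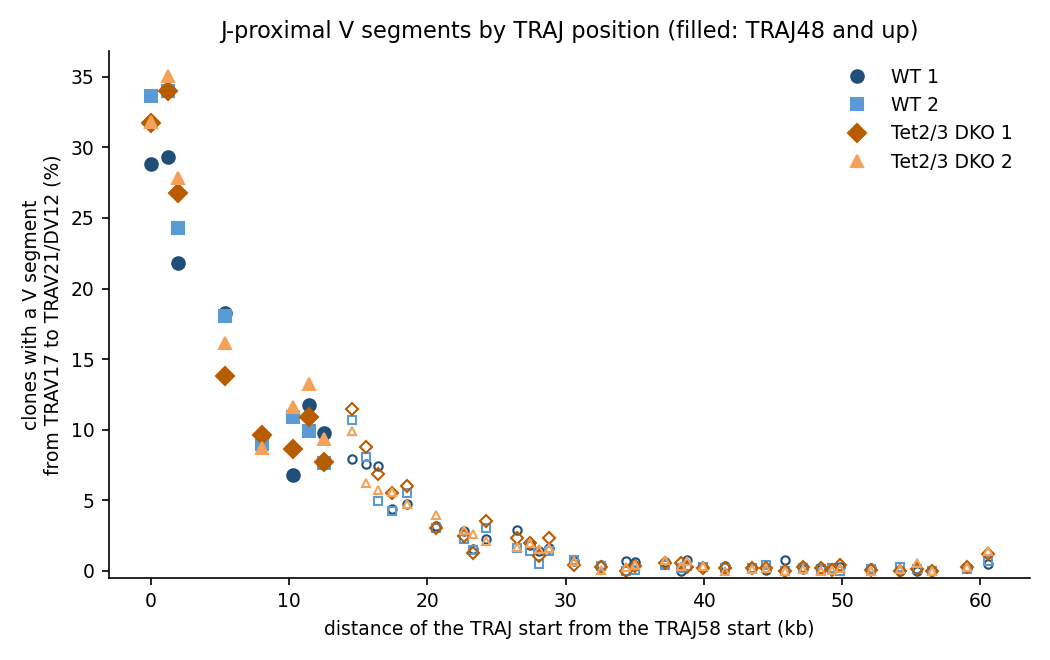
Share of clones whose V segment is one of TRAV17 to TRAV21/DV12 (%, y axis) against the distance of the TRAJ start from that of TRAJ58 (kb, x axis), with 1 point per segment and library. Filled points are TRAJ58 to TRAJ48, which go from 33.4% at TRAJ57 to 8.55% at TRAJ48 over all libraries, and open points are the other segments.

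TRAV21/DV12, a V segment that can also join in the delta chain, was the most frequent partner. It was found in 9.99% and 9.81% of member clones in WT against 10.6% and 12.2% in Tet2/3 DKO. TRAV6-7-DV9, likewise shared with the delta chain, came next with 6.83% and 7.73% in WT against 7.51% and 7.60% in Tet2/3 DKO. TRAV19 followed with 5.86% and 6.71% in WT against 6.56% and 6.46% in Tet2/3 DKO. In TRAJ2 to TRAJ13 the mean shares of these 3 were 0.0642%, 0.254% and 0.0621%. Seen from the V side, 68.7% of all 3649 TRAV21/DV12 clones and 64.6% of all 2327 TRAV19 clones had joined a member segment, beside a median of 6.41% over the 88 V segments with at least 100 clones.

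V segments at the far end of the V array were rare partners of the members. TRAV1, which lies 1729 kb from TRAJ58, took part in 11 member clones, a mean share of 0.0483%, and in 0.826% of the TRAJ2 to TRAJ13 clones. Out of frame were 3 of 4 and 3 of 3 of these member clones in WT against 1 of 1 and 2 of 3 in Tet2/3 DKO. The mean share of TRAV1 and TRAV2 together was 0.0483% for the members, 0.529% for TRAJ37 to TRAJ47 and 1.60% for TRAJ26 to TRAJ35. It was 1.76% for TRAJ15 to TRAJ24 and 0.947% for TRAJ2 to TRAJ13, so it was not highest at the far J end. TRAV2 was listed in 0 of 23413 member clones, which allows a share of up to 0.0128%, and in 277 TCRα clones in all. Of the V segments with at least 100 clones in both sets, TRAV14-2 (3.88% against 0.619%) and TRAV4-3 (1.20% against 0.361%) had the largest ratio of the member share to the TRAJ2 to TRAJ13 share. TRAV13D-2 (0.633% against 4.43%) and TRAV14D-2 (0.431% against 2.48%) had the smallest. The rule of 100 clones leaves out V segments that are rare in either set, where the ratios were more extreme. Examples are TRAV21/DV12 and TRAV19, with 19 TRAJ2 to TRAJ13 clones each and ratios of 166 and 103. TRAV1, with its 11 member clones, had a ratio of 0.0585. TRAV14-2 and TRAV4-3 lie 517 kb and 558 kb from TRAJ58, and TRAV14D-2 and TRAV13D-2 lie 1209 kb and 1215 kb from it. Reads of near-identical V copies can be split between them, and more than 1 V segment was listed for 19.8% to 24.8% of member clones and for 49.5% to 50.1% of other clones.

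V segments named for the delta chain were partners of these TRAJ segments as well. They were singled out after their values had been seen. TRDV1, which lies 276 kb from TRAJ58, took part in 5.34% and 4.80% of member clones in WT against 5.77% and 6.23% in Tet2/3 DKO. Its share was 0.0706% in TRAJ2 to TRAJ13. Of 2149 TRDV1 clones in all, 60.5% had joined a member segment, and 11.5% of these with a CDR3 were out of frame. By segment, TRDV1 took part in 7.95% of TRAJ58 clones and 3.97% of TRAJ48 clones. TRDV2-2 was found in 152 member clones, TRDV2-1 in 26 and TRDV5 in 3.

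Placed by distance, 28.9% ± 2.01 of member clones used a V segment less than 400 kb from TRAJ58 (SD over 4 libraries), 52.4% ± 1.08 one between 400 and 800 kb and 18.7% ± 0.996 one farther away. In TRAJ2 to TRAJ13 the same shares were 0.421% ± 0.0335, 39.7% ± 1.97 and 59.9% ± 1.98. The libraries of the member segments and of TRAJ2 to TRAJ13 did not overlap in any of the 3 zones. The median distance of the V segment was 513 kb for the member clones, 640 kb for TRAJ37 to TRAJ47 and 1012 kb for TRAJ2 to TRAJ13 (means over 4 libraries).

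**Figure D3:**
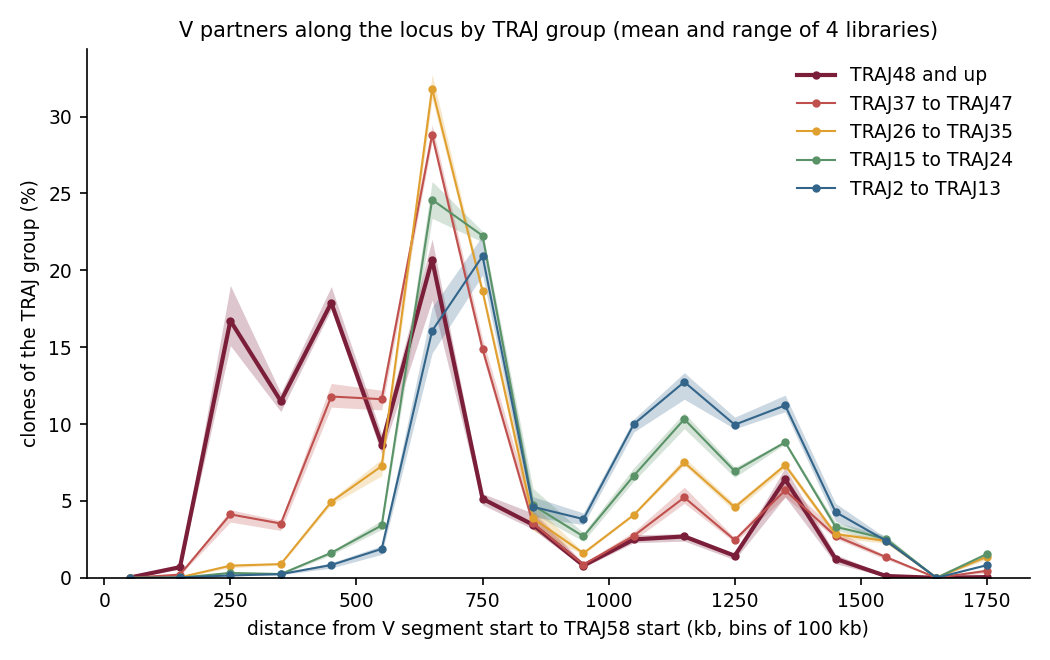
Share of the clones of each TRAJ group (%, y axis) by the distance from the start of the V segment to the start of TRAJ58 (kb, x axis, bins of 100 kb), as the mean of 4 libraries with the range shaded. The curve of TRAJ48 and up is the highest below 400 kb, where it holds 28.9% of its clones, and the curve of TRAJ2 to TRAJ13 is the highest in the bins centred at 1050 to 1450 kb.

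Member segments resembled their neighbours in V usage. By the Pearson correlation of the shares of 101 V segments, among 43 TRAJ segments, TRAJ58 and TRAJ57 were most like each other (r = 0.973), TRAJ56 was most like TRAJ57 (0.965), TRAJ53 like TRAJ56 (0.943) and TRAJ52 like TRAJ50 (0.956). TRAJ50 and TRAJ48 were most like each other (0.965), and TRAJ49 was most like TRAJ48 (0.958). Outside the 8 segments the most similar profile was that of TRAJ47 in each case, with r from 0.643 for TRAJ58 to 0.960 for TRAJ48. These correlations describe the same 4 libraries and are no test.

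The CDR3 loops of member clones were longer on average than those of the other TRAJ clones, though not for every member. In-frame member clones had a mean CDR3 of 13.996 and 14.03 amino acids in the WT libraries and of 14.1 in both Tet2/3 DKO libraries, and clones of all other TRAJ had 13.3, 13.3, 13.3 and 13.4 in the same order. The within-library difference was 0.707, 0.732, 0.759 and 0.750 amino acids, with a mean of 0.737 (SD 0.0230 over 4 libraries; exact two-sided sign-flip permutation p = 0.13). CDR3s of 16 or more amino acids made up 13.5% to 15.5% of the in-frame member clones and 3.67% to 4.17% of the others.

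The CDR3 length followed the length of the segment. TRAJ53 (14.9 amino acids, SD 1.35 over clones) and TRAJ52 (14.9, SD 1.25), which carry the longest CDR3 part of the 8, had the longest mean CDR3. TRAJ50 had 14.4, and TRAJ58, TRAJ57 and TRAJ56 had 14.3, 14.2 and 14.2. TRAJ49 and TRAJ48, with the shortest CDR3 parts, had 13.3 each. Among the 35 other segments with at least 500 clones the mean ran from 12.4 to 15.2 (TRAJ2) with a median of 13.6, so that TRAJ49 and TRAJ48 lay below this median and the other 6 members above it. Across the 8 members Pearson's r of the mean CDR3 length was 0.956 with the segment length and 0.988 with the length left after trimming, and over 43 segments it was 0.852 and 0.927, as a description. As a group these segments were also trimmed more. In-frame member clones had lost 0.544 bases more of the J segment than clones of the other TRAJ (SD 0.0257 over 4 libraries, more in 4 of 4; exact two-sided sign-flip permutation p = 0.13), a comparison chosen after the values had been seen. Over all clones of a segment, TRAJ50 and TRAJ49 had lost 2.13 and 2.23 bases, below the median of 2.61 over the 35 other segments, and the other 6 members 3.16 to 4.22.

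**Figure D4:**
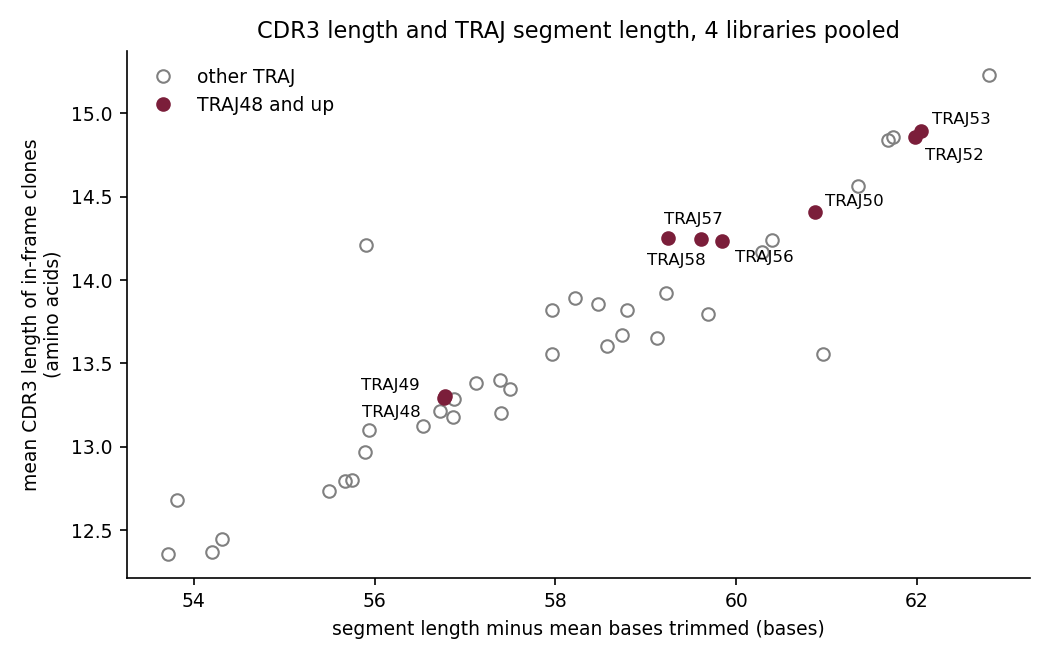
Mean CDR3 length of in-frame clones (amino acids, y axis) against the segment length minus the mean number of bases trimmed (x axis), with 1 point per TRAJ segment of at least 500 clones and 4 libraries pooled. TRAJ53 and TRAJ52, at 14.9 amino acids, lie at the upper right and TRAJ49 and TRAJ48, at 13.3, at the lower left of the 8 filled points.

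The mean CDR3 of in-frame member clones was longer in both Tet2/3 DKO libraries than in both WT libraries. WT averaged 14.01 ± 0.0240 amino acids and Tet2/3 DKO 14.12 ± 0.0275 (n = 2, SD), a difference of 0.103 that exceeded the pooled SD of 0.0258 (exact two-sided permutation p = 0.33). In the clones of all other TRAJ the difference was 0.0678 amino acids, also without overlap of the genotypes (p = 0.33 in the same permutation test). The member clones thus differed by 0.0350 amino acids more than the others, and for this difference of differences the permutation test gave p = 0.33.

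Some of the large clones used a member segment. A clone was called large when it held at least 0.1% of the TCRα reads of its library. In WT, 0 of 14 and 0 of 4 large clones used a member segment, and in Tet2/3 DKO 1 of 7 and 4 of 33 did. The last of these is 12.1% (95% Wilson interval 4.82% to 27.3%), near the share of the members among all clones. The intervals of the other libraries, 0% to 21.5%, 0% to 49.0% and 2.57% to 51.3%, all overlap with it. When clones of the same V, J and CDR3 were merged, an alternative chosen after the values had been seen, 1 of 6 large clones in WT replicate 2 was a member. Large clones of any TRAJ held 3.84% and 0.487% of the reads in WT against 1.19% and 8.43% in Tet2/3 DKO, where the genotypes overlapped. The 4 large clones of Tet2/3 DKO replicate 2 held 11.6% of its member reads, and 3 of the 4 used a J-proximal V segment. The CDR3 nucleotide sequence of the most abundant member clone of each library is shown because the read counts of these clones weigh on the read shares above. Capitals mark the bases that MiXCR aligned to the TRAJ segment or its flank.
WT 1, TRAV4-4-DV10 with TRAJ53: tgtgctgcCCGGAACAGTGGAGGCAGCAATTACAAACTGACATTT
WT 2, TRAV4-4-DV10 with TRAJ56: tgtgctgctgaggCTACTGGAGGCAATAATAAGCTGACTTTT
Tet2/3 DKO 1, TRAV14-2 with TRAJ50: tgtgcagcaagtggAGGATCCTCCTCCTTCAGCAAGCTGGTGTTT
Tet2/3 DKO 2, TRAV21/DV12 with TRAJ58: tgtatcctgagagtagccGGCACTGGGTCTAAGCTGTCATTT

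The WT clones held 159 reads, or 0.0922% of the library (95% Wilson interval 0.0789% to 0.108%), and 213 reads, or 0.0984% (0.0861% to 0.113%). The Tet2/3 DKO clones held 391 reads, or 0.200% (0.182% to 0.221%), and 2997 reads, or 1.04% (1.00% to 1.08%). The last of these was the most abundant TCRα clone of its library. It was followed among the members of that library by a clone of TRAV19 with TRAJ53 (441 reads), one of TRAV21/DV12 with TRAJ50 (369 reads) and one of TRAV7-6 with TRAJ56 (353 reads).

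The 10 most abundant member clones held 4.84% and 3.94% of the member reads in WT against 4.92% and 15.1% in Tet2/3 DKO. Tet2/3 DKO replicate 2 stood apart, and replicate 1 lay just above the higher WT library. The 10 most abundant clones of all other TRAJ held 3.86% and 1.13% of their reads in WT against 1.48% and 4.98% in Tet2/3 DKO, so that the genotypes overlapped there and Tet2/3 DKO replicate 2 was again highest. The other TRAJ hold far more clones than the members, so the levels of these shares cannot be compared between both sets. The means for the member clones were 4.39% ± 0.638 and 10.01% ± 7.20 (SD, n = 2), a log2 ratio of 1.19 (exact two-sided permutation p = 0.33), and without Tet2/3 DKO replicate 2 the log2 ratio was 0.16. When the 50 most abundant clones were counted, the genotypes overlapped, with 11.4% and 9.68% in WT against 10.3% and 23.6% in Tet2/3 DKO. To reach 50% of the member reads, 916 and 1142 clones were needed in WT against 1195 and 720 in Tet2/3 DKO.

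**Figure D5:**
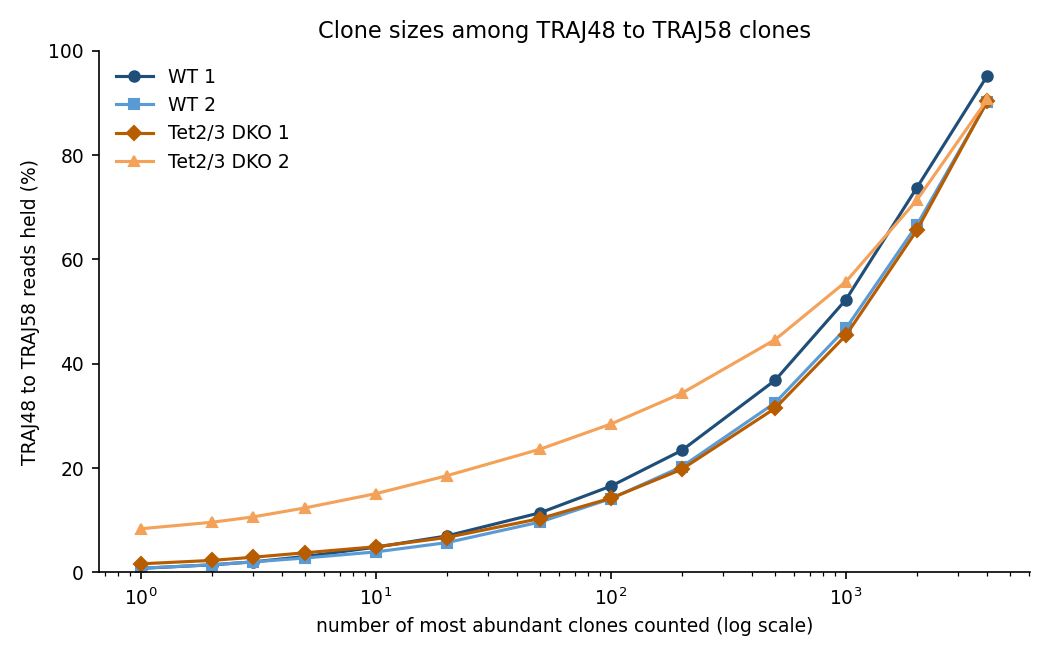
Cumulative share of the reads of TRAJ48 to TRAJ58 clones (%, y axis) held by the most abundant clones (number of clones on a log scale, x axis), with 1 line per library. The line of Tet2/3 DKO replicate 2 starts above the other 3 and reaches 15.1% at 10 clones, where the others lie between 3.94% and 4.92%.

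Some in-frame member chains recurred across animals. A chain was defined by its V segment, J segment and CDR3 nucleotide sequence, and 138 of 15880 member chains (0.869%) were found in all 4 libraries, beside 1224 of 104845 chains of other TRAJ (1.17%). TRAJ49 with 32, TRAJ57 with 31 and TRAJ56 with 29 gave most of the 138. Relative to the chains of each segment, the share was highest for TRAJ57 (1.37%), TRAJ56 (1.24%) and TRAJ49 (1.05%), and it lay between 0.495% for TRAJ52 and 0.764% for TRAJ58 in the other 5. Of the 138 chains, 74.6% had no base between the aligned V and J parts, whereas 28.5% to 29.6% of in-frame member clones had none. The 3 of these chains with the most reads are shown with the J-aligned bases in capitals.
TRAV4-4-DV10 with TRAJ56: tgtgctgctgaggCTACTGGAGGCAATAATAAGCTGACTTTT
TRAV13-4-DV7 with TRAJ56: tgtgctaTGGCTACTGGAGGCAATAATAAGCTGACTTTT
TRAV6-7-DV9 with TRAJ48: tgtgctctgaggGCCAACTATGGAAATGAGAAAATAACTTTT

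The TRAV4-4-DV10 chain, which is the top member of WT replicate 2, held 56 and 218 reads in WT against 25 and 38 in Tet2/3 DKO. The TRAV13-4-DV7 chain held 47 and 45 reads in WT against 71 and 81 in Tet2/3 DKO. The V and J parts meet with no base between them in this chain and in the TRAV4-4-DV10 chain, and with 1 base in the TRAV6-7-DV9 chain. The TRAV6-7-DV9 chain held 8 and 148 reads in WT against 16 and 22 in Tet2/3 DKO. WT replicate 2 held the most reads of the TRAV4-4-DV10 and TRAV6-7-DV9 chains. By contrast, the V, J and CDR3 of the top clones of WT replicate 1 and of both Tet2/3 DKO libraries were found in no other library.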

How the data were processed

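TCR SMART-seq libraries (a 5′ RACE method) from 2 WT and 2 Tet2/3 DKO spleens were analysed, and TCRβ tables were not used here. The authors assembled clones with MiXCR after trimming by fastp 0.21.0, and deposited for each clone the count of its reads, not normalized. The submitters' notes name bcl2fastq 2.20.0 and mm10. Depth was 172506 to 287799 TCRα reads and 39463 to 53844 clones per library. More depth gives narrower counting intervals and more small clones. The p-values rest on these libraries only. Those of edgeR use a spread moderated over all segments tested, so they do not measure the spread of a single segment.

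The members, the TRAJ groups and the tests were chosen with earlier results of these data known. The listed V and J segments were used without alleles, and every clone listed a single J. Clones without a CDR3 stayed in denominators, except in out-of-frame percentages, which were taken over clones with a CDR3. A frame-shift mark in the translated CDR3 gave the out-of-frame joins. Positions came from RefSeq (GRCm38.p6), which held all 101 V and 44 J names found. Distances run from start to start. Named were all member segments, the V segments at both ends of the array, the 3 most frequent V partners, the V segments with the largest and smallest ratios, the most similar TRAJ and the top clone per library, and a segment needed 500 clones for a profile.

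Counts per TRAJ segment were tested with edgeR 4.0.16 (quasi-likelihood, scaled by library totals, at least 10 counts, Benjamini-Hochberg, threshold 0.05), with DESeq2 1.42.0 as an alternative. The standard error was taken from the test statistic. Single values were compared with exact permutation tests over 6 label assignments or 16 sign patterns. The report gives 19 such tests, and Benjamini-Hochberg adjustment over them gave 0.339 for the sign-flip tests and 0.452 to 1 for the others. Tests were run on simulated data first. Alternatives were the minimum of reads per clone, merging by V, J and CDR3, equal reads (20 draws), large clones, single V hits, the first member segment (TRAJ50 or TRAJ45), normalization, a replicate block and each library left out. Scripts used Python 3.11.15 with numpy 2.4.6, pandas 2.3.3 and scipy 1.17.1.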

Additional observations from a re-analysis of the deposited data

How the results depend on the processing

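Of the alternatives run, 9 counts of calls moved by more than 1.5 times, 11 values changed sign, 6 calls were lost and 1 was gained, and 242 stayed within these limits. No value that changed sign had a call. The log2 ratio of the read share was -0.0251 without clones of at least 0.1% of reads. That of the out-of-frame share was 0.0245 with at least 2 reads per clone, 0.0845 by reads and 0.00223 without WT replicate 2. With each library left out in turn, the log2 fold change by reads (edgeR) ran from -0.197 to 0.00375 for TRAJ48, -0.0102 to 0.268 for TRAJ50, -0.146 to 0.00583 for TRAJ52, -0.181 to 0.0138 for TRAJ53 and -0.101 to 0.0322 for TRAJ56, and by clones from -0.135 to 0.00695 for TRAJ50. Without the large clones it was -0.0396 for TRAJ50 by reads. Segments called by reads numbered 0 with DESeq2, 0 without clones of at least 0.1% of reads and 0 with the replicate block. The cause of these changes was not tested. Leaving out each library in turn gave 0 to 1 calls by reads and 0 to 9 by clones, -0.0371 to 0.00223 for the out-of-frame share, 0.0150 to 0.0565 for the read share, -0.0548 to -0.00451 for the clone share, 0.0643 to 0.191 for the J-proximal V share and 0.16 to 1.78 for the 10 most abundant clones (log2 ratios). With TMM the number of calls stayed at 2 by reads and 0 by clones, and merging gave 0 calls by clones. Equal reads and single V hits were run on values without a call and changed no sign. Clones with a single J hit were all clones.

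The replicate numbers were checked as a pairing. Deviations of same-numbered libraries from their genotype means correlated at -0.05 by reads and 0.16 by clones over 2 pairs, so the numbers were not taken as pairs. With the replicate block, TRAJ58 by reads had a log2 fold change of 0.61 (edgeR, adjusted p = 0.733), and the paired log2 ratio was 0.13 for the J-proximal V share and 0.98 for the 10 most abundant clones, with a paired difference of 0.103 amino acids in CDR3 length. The block also removed the call of the 1 other segment called by reads, which is no member, and changed no other call. Depth limits out-of-frame segment shares most, since single segments hold 40 to 156 such clones per library.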
